A study of Mus musculus with 18 samples.

Results

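The genes described here are 10 genes of major histocompatibility complex (MHC) class I antigen presentation in the mouse retina, read on arrays in the strains C57BL/6J and DBA/2J, with and without a crush of the optic nerve. They were the heavy chains H2-D1, H2-K1, H2-T23 and H2-M3, the light chain B2m, the peptide transporter subunits Tap1 and Tap2, the loading factor Tapbp, and the immunoproteasome subunits Psmb8 and Psmb9. Every probe of the array whose annotated symbol was 1 of these 10 was taken, which gave 18 probes of 46116, and 10 genes of the 17658 that had a probe with a single symbol. Retinal RNA was hybridized to 18 Illumina 1-colour arrays in 6 groups of 3, and each array held the RNA of both retinas pooled. Each strain gave a control group, a group at 2 days and a group at 5 days after the crush. All mice were labelled male and were 60 to 90 days old, the controls were not crushed, and the crush lasted 10 s. DBA/2J mice develop pigmentary glaucoma with age, and the methods place these mice before its onset. Values are the scaled intensity used by the study, in which log2 intensities were standardized per array to a mean of 8 and an SD of 2, and 1 unit of it was 0.56 log2, or 1.47-fold, in the median array.

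MHC class I molecules display peptides from inside a cell to CD8 T cells and natural killer cells. Peptides are cut by the proteasome, in which Psmb8 and Psmb9 replace constitutive subunits under interferon, are carried into the endoplasmic reticulum by the Tap1 and Tap2 transporter, and are loaded with the help of tapasin, the product of Tapbp, onto a heavy chain paired with beta-2-microglobulin, the product of B2m. Neurons of the healthy central nervous system hold little of these molecules, and interferons raise the pathway in glia and in neurons. The classical heavy chains H2-K1 and H2-D1 are among the most variable genes of the mouse, and C57BL/6J carries haplotype b and DBA/2J haplotype d of the H2 region. A short probe may therefore match the transcript of 1 haplotype better than that of the other. In a comparison of the strains, a better match of the probe and a higher transcript level cannot be told apart here, since the probe sequences were not analysed. Within a strain the haplotype is shared, so a comparison of crush with control does not set 1 haplotype against the other where the arrays follow their labels. A probe that reads 1 haplotype poorly may still miss a change in that strain. A difference in change between the strains can then carry the match of the probe too.

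The arrays did not all follow their labels. Glo1, a detoxifying enzyme known for extra copies in DBA/2J, read 15.55 to 16.32 in 8 of the C57BL/6J arrays and 17.13 to 17.98 in 8 of the DBA/2J arrays, but 17.75 in C57BL/6J 2 days replicate 3 and 16.31 in DBA/2J 2 days replicate 1, each near the other strain. For this reason the control and 5-day groups were compared in a fit of their 12 arrays, and the 2-day groups in a fit of all 18, with and without these 2 arrays. C57BL/6J control replicate 1 read 11.27 for Xist and 7.02 for the Y-linked Eif2s3y, against 6.89 to 7.55 and 12.34 to 14.05 in the other 17 arrays, which goes against its male label. DBA/2J 5 days replicate 2 stood above its group for most of the genes described here. Lens genes averaged 16.4 in C57BL/6J control replicate 3 and 7.12 to 12.13 in the other arrays. Median signal was 131.5 to 210.4 over the arrays. No detection p-values were in the files, so whether a dim probe stood above background is not known, and the percentile of a probe's mean signal among all probes is given in its place.

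The upstream sequences of the genes that the results turn on are shown because they hold the short elements that class I genes are known to share. RefSeq sequence of build GRCm38.p6, which is the C57BL/6J genome, was found by symbol for 9 of the 10 genes, Tap2 being the exception, and the 250 bases before the first listed start were searched on both strands. The motifs were GGGGATTCC, the core of the kappa B site of the class I enhancer, AANNGAAA, a core bound by interferon regulatory factors, TGACG, the core of the X2 or cyclic AMP response element, and CCAAT. Capitals mark every match on either strand.
B2m, chr2:122147437-122147686, plus strand: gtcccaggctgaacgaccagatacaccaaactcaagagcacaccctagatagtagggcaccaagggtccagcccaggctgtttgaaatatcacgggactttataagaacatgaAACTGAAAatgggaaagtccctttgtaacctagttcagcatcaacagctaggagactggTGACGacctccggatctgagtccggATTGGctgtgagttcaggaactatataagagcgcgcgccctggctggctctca
H2-D1, chr17:35262844-35263093, plus strand: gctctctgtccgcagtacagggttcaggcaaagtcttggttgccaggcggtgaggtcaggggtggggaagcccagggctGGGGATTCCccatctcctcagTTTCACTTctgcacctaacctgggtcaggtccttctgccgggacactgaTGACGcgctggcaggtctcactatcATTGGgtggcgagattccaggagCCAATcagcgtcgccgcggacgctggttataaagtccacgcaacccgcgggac
H2-K1, chr17:34000348-34000597, minus strand: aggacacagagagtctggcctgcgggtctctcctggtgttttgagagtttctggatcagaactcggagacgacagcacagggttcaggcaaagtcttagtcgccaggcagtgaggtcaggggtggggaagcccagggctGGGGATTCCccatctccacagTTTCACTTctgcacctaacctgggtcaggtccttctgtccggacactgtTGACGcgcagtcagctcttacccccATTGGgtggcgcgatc
H2-T23, chr17:36032702-36032951, minus strand: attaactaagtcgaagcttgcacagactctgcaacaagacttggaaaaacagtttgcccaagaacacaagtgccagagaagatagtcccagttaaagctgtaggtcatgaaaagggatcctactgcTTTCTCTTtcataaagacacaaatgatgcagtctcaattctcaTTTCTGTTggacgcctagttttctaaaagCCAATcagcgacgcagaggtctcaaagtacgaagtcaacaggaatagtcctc

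The kappa B core stood in the windows of H2-D1 and H2-K1, 2 of 9 members, against 0.213% of all 32841 windows of this length. The interferon regulatory factor core stood in 5 of 9 against 21.3% of all windows, TGACG in 6 of 9 against 17.8%, and CCAAT in 8 of 9 against 33.9%. H2-D1 and H2-K1, which arose by duplication, shared a run of 47 bases, so their matches are not separate cases. The Tap1 and Psmb9 windows of 300 bases overlapped by 275, since these genes start back to back, and their matches may be the same bases. The Psmb8 window held none of the 4 motifs. The motifs were chosen as elements known from class I genes, so the shares above are a description and not a test of enrichment. A match describes letters and is not a measured binding site.

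The probes of H2-K1 and H2-D1 differed between the strains in opposite directions before any injury. H2-K1 encodes a classical heavy chain, and its probe 580332, at percentile 84.0 of signal, read 8.99, 10.82 and 10.16 in the 3 C57BL/6J control arrays and 7.17, 6.83 and 6.86 in the DBA/2J controls. The groups did not overlap, and the DBA/2J readings lay near the median of all probes, which was 7.07 to 7.25 per array. DBA/2J minus C57BL/6J was -3.04 units (SE 0.57, limma adjusted p = 0.0222). The second classical heavy chain, H2-D1, was read by probe 2190725 at 7.31, 7.40 and 7.07 in the C57BL/6J controls and at 9.89, 9.84 and 10.37 in the DBA/2J controls. Here C57BL/6J lay near the median of all probes and DBA/2J was higher by 2.77 units (SE 0.44, adjusted p = 0.0077). These were the 2 member probes called, that is with an adjusted p under 0.03, among 18 in this comparison, where 1.03% of all probes were called in either direction. Both calls were fragile: with any 1 of the 6 control arrays left out, H2-D1 probe 2190725 stayed called only without DBA/2J control replicate 2 (adjusted p = 0.0263, otherwise 0.0326 to 0.0466), and H2-K1 probe 580332 only without C57BL/6J control replicate 1 (adjusted p = 0.0156, otherwise 0.0681 to 0.118), while the differences stayed between 2.60 and 2.87 units and between -3.53 and -2.62.

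The other probes of these genes gave smaller differences, none of them called. H2-D1 probe 105910377, the brightest of the heavy-chain probes at percentile 93.8, read 10.46, 10.89 and 9.93 in C57BL/6J controls and 11.39, 11.98 and 11.40 in DBA/2J controls. The groups did not overlap and DBA/2J was 1.17 units higher (SE 0.52), but the adjusted p was 0.661. H2-K1 probes 2760446 and 105700053 differed by -0.12 and 0.25 units and stood at percentiles 52.5 and 23.8 of signal. Between the probes of a gene the strain difference ranged from 1.17 to 2.77 units in H2-D1 and from -3.04 to 0.25 in H2-K1.

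At 5 days after crush the gap between the strains was called again at the same 2 probes. H2-K1 probe 580332 read 10.03, 12.35 and 11.93 in C57BL/6J and 6.96, 7.77 and 6.90 in DBA/2J, a difference of -4.23 units, DBA/2J minus C57BL/6J (SE 0.57, adjusted p = 0.00219). H2-D1 probe 2190725 read 7.09, 6.88 and 6.86 in C57BL/6J and 10.65, 12.89 and 10.99 in DBA/2J, 4.57 units higher in DBA/2J (SE 0.44, adjusted p = 0.000204). Again the arrays of the strains did not overlap at either probe. These were 2 of 18 member probes, against 1.28% of all probes called in this comparison, and both stayed called with any 1 of these 6 arrays left out. At these probes too, 2 arrays of the 2-day groups read like the other strain, with 6.86 for H2-K1 and 10.16 for H2-D1 in C57BL/6J 2 days replicate 3, and 8.66 and 6.95 in DBA/2J 2 days replicate 1. When all 18 arrays entered the fit, the calls were lost, with an adjusted p of 0.394 for H2-D1 and 0.243 for H2-K1 in controls, and 0.114 and 0.113 at 5 days.

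**Figure D1:**
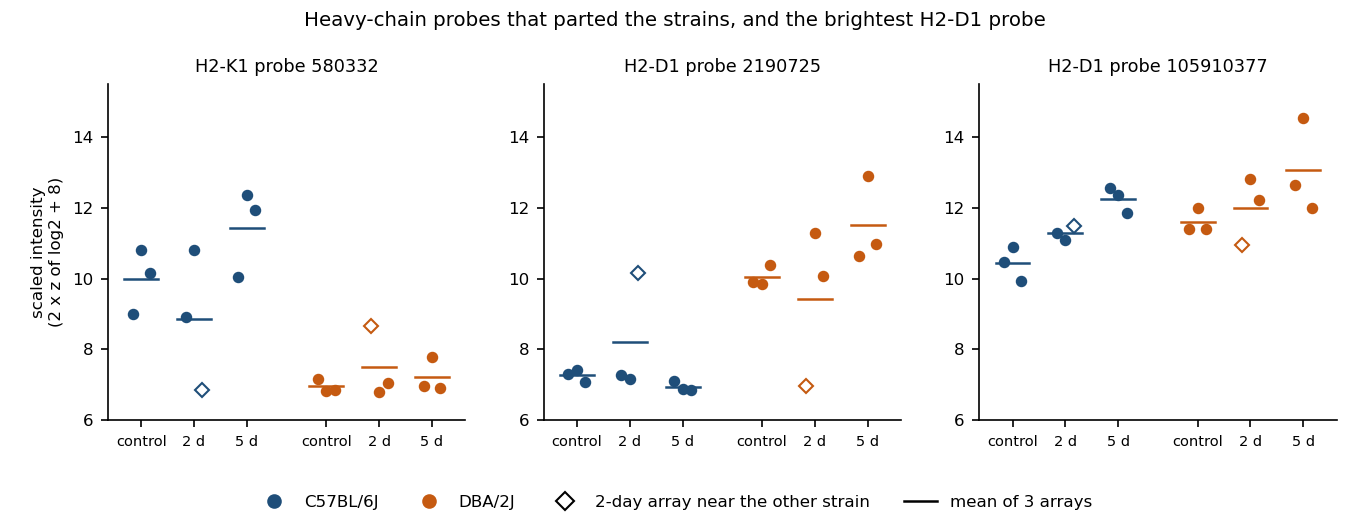
Scaled intensity (vertical axis, 2 times the z-score of log2 intensity plus 8) of 3 heavy-chain probes in each array by strain and time after crush, with lines at the mean of 3 arrays and open diamonds for the 2 arrays of the 2-day groups that read like the other strain. H2-K1 probe 580332 was high in C57BL/6J and H2-D1 probe 2190725 in DBA/2J, and the diamonds sit with the other strain at both, while H2-D1 probe 105910377 was bright in both strains.

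After crush, H2-D1 was bright enough to follow in both strains at probe 105910377, which read 12.55, 12.36 and 11.86 in C57BL/6J 5 days and 12.65, 14.53 and 12 in DBA/2J 5 days, above every control array of the same strain in both cases. The difference from control was 1.83 units in C57BL/6J (SE 0.52, adjusted p = 0.0854) and 1.47 in DBA/2J (SE 0.52, adjusted p = 0.267), and it was called only for the mean of the strains, at 1.65 units (SE 0.37, adjusted p = 0.0215), a call kept under 9 of 18 alternatives. Without DBA/2J 5 days replicate 2 the DBA/2J difference was 0.73 (SE 0.32, adjusted p = 0.484). Probe 2190725 gave 1.48 units (SE 0.44, adjusted p = 0.182) in DBA/2J, where it was bright, and -0.32 in C57BL/6J, where it read near the median of all probes, and the DBA/2J value was 0.79 (SE 0.19, adjusted p = 0.182) without replicate 2. H2-K1 probe 580332 gave the mirror of this, with 1.45 units (SE 0.57, adjusted p = 0.19) in C57BL/6J and 0.26 in DBA/2J, or -0.03 without replicate 2. The test of whether the change differed between the strains was not passed by any of the 3, with adjusted p of 0.976 or above.

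H2-T23 encodes Qa-1, a nonclassical heavy chain that is nearly the same in all mice and is a ligand of inhibitory receptors on natural killer and T cells. Its probe 2850609 read 8.31, 7.69 and 7.75 in C57BL/6J controls and 10.88, 10.33 and 11.04 at 5 days. All 3 crushed arrays lay above all 3 controls, and the probe rose by 2.83 units (SE 0.55, adjusted p = 0.0234); quantile-normalized log2 values gave 1.5. In DBA/2J it read 7.56, 7.55 and 7.40 in controls and 8.16, 10.61 and 7.93 at 5 days. These groups did not overlap either, but 1 array carried most of the difference of 1.40 units (SE 0.55, adjusted p = 0.329), which was 0.54 (SE 0.23, adjusted p = 0.48) without DBA/2J 5 days replicate 2. The other H2-T23 probes lay in the same direction in C57BL/6J, at 1.64 units for probe 380692 (SE 0.43, adjusted p = 0.0698) and 0.85 for the dimmer probe 102340121 (SE 0.24, adjusted p = 0.0895). For the mean of the strains, probes 2850609 and 380692 rose by 2.11 and 1.30 units (SE 0.39 and 0.31, adjusted p = 0.00908 and 0.027), kept under 18 and 7 of 18 alternatives. H2-M3, which presents formylated bacterial peptides, read between 6.39 and 7.70 over the 18 arrays, at percentile 33.8 of signal, and differed from control by 0.53 units in C57BL/6J and 0.25 in DBA/2J at 5 days, neither of them called, the latter 0.08 without DBA/2J 5 days replicate 2.

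B2m encodes the light chain that all these heavy chains need to reach the cell surface, and its probe 5080332 was the brightest member probe, at percentile 97.3. In C57BL/6J it read 13.20, 12.06 and 12.43 in controls, 13.28, 12.09 and 11.18 at 2 days, and 15.41, 14.82 and 15.34 at 5 days. The 5-day arrays stood clear of all others of the strain, and B2m rose by 2.63 units (SE 0.53, adjusted p = 0.0281), against 1.67 in quantile-normalized log2 values. In DBA/2J it read 11.46, 11.07 and 11.45 in controls, 13.34, 13.76 and 11.71 at 2 days, and 12.68, 15.11 and 12.86 at 5 days. Every array labelled as crushed DBA/2J lay above every DBA/2J control. Among them, DBA/2J 2 days replicate 1 (13.34) is an array near the other strain. The other such array, C57BL/6J 2 days replicate 3 (11.18), lay within the range of the DBA/2J controls. The 5-day difference in DBA/2J was 2.23 units (SE 0.53, adjusted p = 0.109), or 1.44 (SE 0.30, adjusted p = 0.135) without replicate 2. For the mean of the strains B2m rose by 2.43 units (SE 0.37, adjusted p = 0.00445), a call that held under all 18 alternatives run. RNA of the whole retina was measured, so a higher number of B2m-rich cells and more B2m RNA per cell cannot be told apart.

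The 6 group means of B2m probe 5080332 ran from DBA/2J control (11.33, SD 0.22) through C57BL/6J 2 days (12.18, SD 1.05), C57BL/6J control (12.56, SD 0.58), DBA/2J 2 days (12.94, SD 1.08) and DBA/2J 5 days (13.55, SD 1.36) to C57BL/6J 5 days (15.19, SD 0.32), with n = 3 in each. Neighbours in that order overlapped in their arrays. DBA/2J control met C57BL/6J 2 days only at replicate 3 of the latter (11.18), an array near the other strain. DBA/2J 5 days met C57BL/6J 5 days only at replicate 2 of the former (15.11). Without the 2 arrays near the other strain, C57BL/6J 2 days lay 0.12 units above C57BL/6J control, so that part of the order turned. DBA/2J minus C57BL/6J was -1.24 units in controls (SE 0.53, adjusted p = 0.625), with all 3 arrays lower, and significance analysis of microarrays (SAM), run as an alternative, called it. The second B2m probe, 5130059, read between 6.51 and 7.21 on all arrays, at percentile 38.6, and followed none of this.

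No probe of the transporter or of the loading factor was called. Tap2 probe 2810347 read 9.10 ± 0.33 (SD, n = 3) in C57BL/6J controls and 9.47 ± 0.22 at 5 days, a difference of 0.37 units (SE 0.35, adjusted p = 0.598), and in DBA/2J the difference was 0.68 (SE 0.35, adjusted p = 0.49), with DBA/2J 5 days replicate 2 at 10.52 and a difference of 0.18 without it. Tap1 probe 4050047 stood at percentile 35.4 of signal and ranged over 0.81 units on all 18 arrays. Its 3 C57BL/6J 5-day arrays were above the 3 controls, by 0.24 units on average (SE 0.17, adjusted p = 0.459). Tapbp probe 4230148 differed from control by 0.33 units in C57BL/6J and 0.16 in DBA/2J (SE 0.18 in each). With 1 probe each, and a dim one for Tap1, a change of these transcripts was not detectable at this precision, which does not show that there was none.

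Psmb8 encodes the immunoproteasome subunit that takes the place of Psmb5. Probe 100780427 read 7.60, 7.48 and 7.22 in C57BL/6J controls and 10.22, 9.09 and 9.53 at 5 days. The groups were far apart, and the rise of 2.18 units (SE 0.28, adjusted p = 0.00479) had the smallest adjusted p of any member probe in this comparison and held under all 14 alternatives. The DBA/2J arrays read 7.52, 7.33 and 7.85 in controls and 8.38, 8.97 and 8.21 at 5 days, again without overlap, for a difference of 0.96 units (SE 0.28, adjusted p = 0.168). Of all member probes this had the smallest p for a difference in change between the strains, which was -1.22 units, DBA/2J minus C57BL/6J (SE 0.39, unadjusted p = 0.00943), but the adjusted p was 0.976.

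A second Psmb8 probe, 105220301, read 8.53, 7.84 and 7.76 in C57BL/6J controls and 10.30, 9.42 and 9.51 at 5 days, and 7.57, 7.79 and 7.49 against 8.51, 10.77 and 8.31 in DBA/2J. The groups did not overlap in either strain, and the mean of the strains rose by 1.64 units (SE 0.37, adjusted p = 0.0236), kept under 8 of 18 alternatives, with no call within a strain. Probe 2850707 ranged over 0.75 units in all. Psmb9, whose product replaces that of Psmb6, was read by a single probe at 7.92, 6.98 and 7.52 in C57BL/6J controls and at 8.86, 8.24 and 9.38 at 5 days. These arrays did not overlap, and the difference was 1.35 units (SE 0.63, adjusted p = 0.262). DBA/2J gave 7.12, 10.03 and 7.19 at 5 days against 7.25, 7.26 and 7.12 in controls, so that replicate 2 alone was high.

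**Figure D2:**
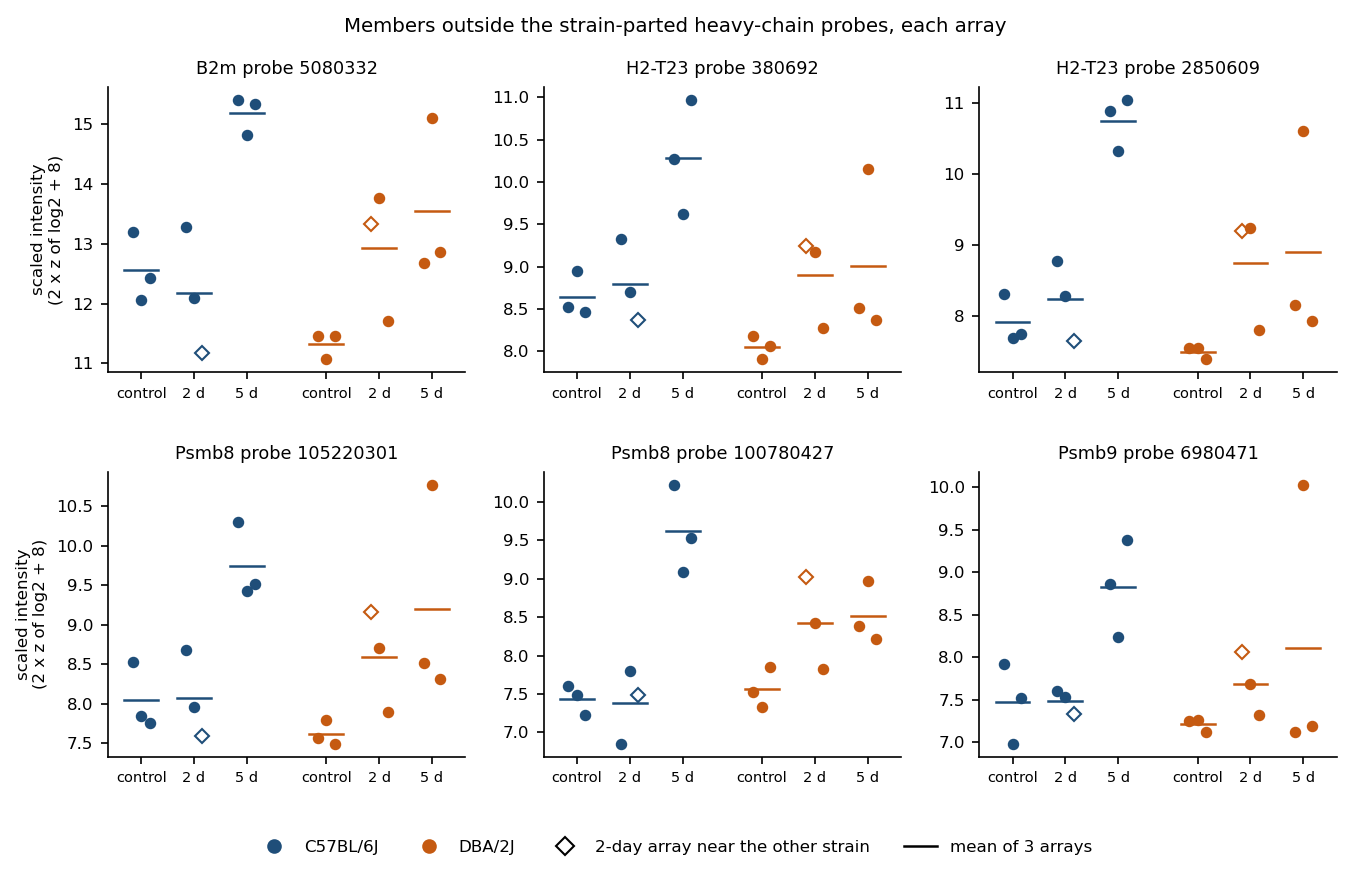
Scaled intensity of 6 probes of B2m, H2-T23, Psmb8 and Psmb9 in each array (vertical axes differ between panels), with lines at the mean of 3 arrays. The 3 C57BL/6J 5-day arrays lie above the C57BL/6J controls in every panel, and in DBA/2J at 5 days replicate 2 is the highest of its group in every panel.

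Over all members, 3 of 18 probes rose 5 days after crush in C57BL/6J, 1 each of B2m, H2-T23 and Psmb8, and 0 fell, against 0.859% of all probes called higher. Without overlap, all 3 arrays above all 3 controls, stood 10 of 18, against 9.58% of all probes. The median difference of the 18 was 0.69 units, against -0.06 over all probes. The calls of B2m and H2-T23 were marginal: each was lost when any 1 of the 6 C57BL/6J arrays was left out, with adjusted p up to 0.104 and 0.0902, and without C57BL/6J control replicate 1, the array that goes against its sex label, B2m gave 2.94 units (adjusted p = 0.0601) and H2-T23 probe 2850609 gave 3.03 (adjusted p = 0.0661). The B2m call was also lost with all 18 arrays in the fit (adjusted p = 0.0461).

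In DBA/2J, 0 of 18 probes were called at 5 days, the smallest adjusted p was 0.109, and 8 had an unadjusted p under 0.05, while SAM called 0 as well. The comparison gave few calls on the whole array, with 0.0195% of all probes called higher. Of the 18, 17 lay above control on average and 7 did not overlap with it, against 7.0% of all probes. The median difference was 0.61 units, against -0.04 over all probes. Both values rested on 1 array: without DBA/2J 5 days replicate 2, 12 of 18 lay above control and the median was 0.18 units, against -0.03 over all probes. For the mean of the strains, 6 probes of 4 genes rose, B2m, H2-D1, 2 of H2-T23 and 2 of Psmb8, against 2.89% of all probes called higher.

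Whether the change at 5 days differed between the strains was tested directly. It was called for 0 of 18 probes and for 0.0% of all probes, with 2 member probes and 2060 of all probes at an unadjusted p under 0.05. The direct comparison of the strains at 5 days depended on 1 array. Without DBA/2J 5 days replicate 2, 7 member probes were called in place of 2: H2-D1 probe 2190725 was higher in DBA/2J, and H2-K1 probe 580332, B2m, all 3 probes of H2-T23, and Psmb9 were lower. Over the whole array the full fit called 1.28% of probes, and fewer were called with any 1 array of these groups left out. DBA/2J minus C57BL/6J was then -2.42 units for B2m (SE 0.30, adjusted p = 0.00204) and -2.70 for H2-T23 probe 2850609 (SE 0.23, adjusted p = 0.000196). With that array in, the same differences were -1.64 (adjusted p = 0.246) and -1.85 (adjusted p = 0.186). The difference in change stayed uncalled without it, with a smallest adjusted p of 0.225.

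**Figure D3:**
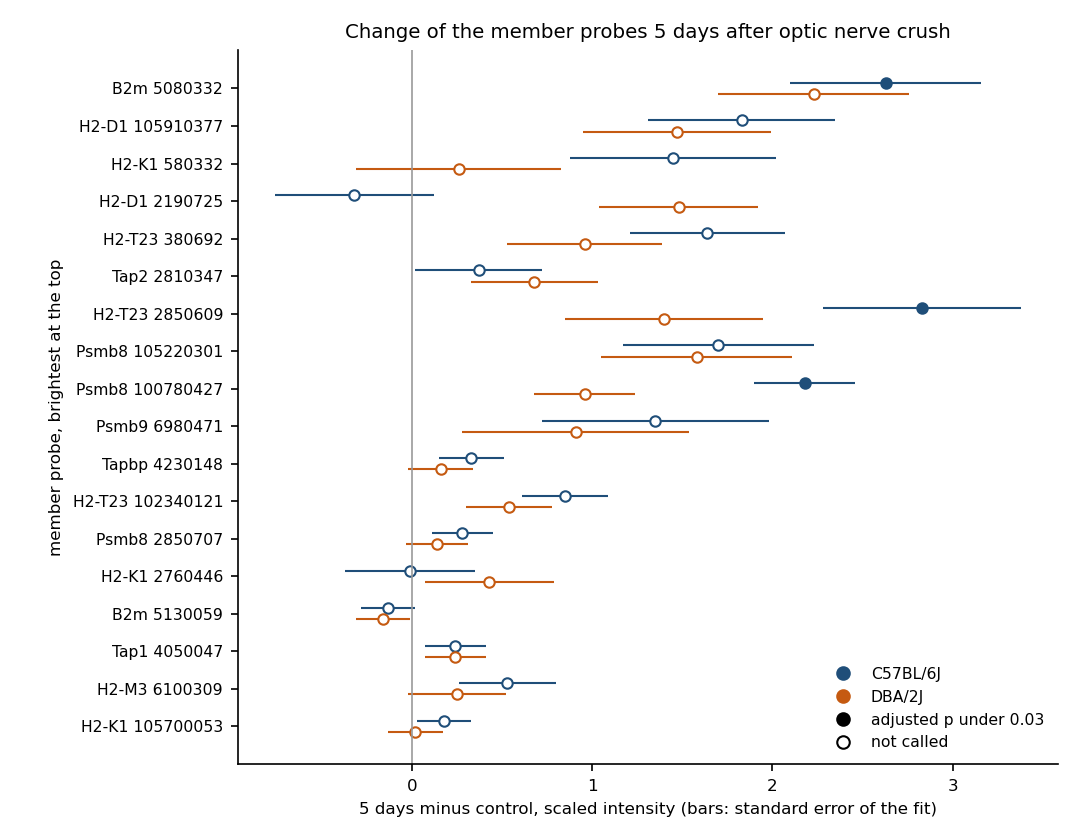
Difference between 5 days and control in scaled intensity (horizontal axis) for the 18 member probes, ordered by mean signal with the brightest at the top, in C57BL/6J and DBA/2J, with bars for the standard error of the fit and filled points for an adjusted p under 0.03. The 3 filled points are B2m 5080332, H2-T23 2850609 and Psmb8 100780427 in C57BL/6J, and the dimmest probes lie near 0 in both strains.

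At 2 days after crush no member probe was called in either strain. In C57BL/6J the smallest adjusted p was 0.724, 0 member probes had an unadjusted p under 0.05, and only H2-D1 probe 105910377 stood clear of the controls, at 11.30, 11.10 and 11.48. That is 1 of 18 against 5.39% of all probes, with 0.00867% of all probes called higher, and in all 9 probes of the array were called there, or 14 with the replicate number as a block. In DBA/2J the smallest adjusted p was 0.753 and 3 member probes had an unadjusted p under 0.05. Without overlap above control stood 6 of 18, probes of B2m, H2-T23, Psmb8 and Psmb9, against 4.33% of all probes, with 0.0% called higher. This count, like the 1 of 18 in C57BL/6J, includes the array of its group that read near the other strain. B2m was 1.61 units above control (SE 0.65, adjusted p = 0.769) and H2-T23 probe 2850609 was 1.24 above (SE 0.56, adjusted p = 0.778). With the 2 arrays near the other strain left out, B2m was 1.41 units above control in DBA/2J (SE 0.70, adjusted p = 0.897) and 0.12 in C57BL/6J, and again 0 member probes were called in either strain.

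Other genes of the pathway stayed below the threshold. Of 20 further genes of class I and class I-like heavy chains (26 probes), most of them H2-Q and H2-T genes, with Mr1, Cd1d1, Cd1d2, Fcgrt and Hfe outside the H2 complex, and of 10 further genes of peptide loading and trimming (17 probes), 0 were called in any of the 8 comparisons, with medians of -0.02 and 0.07 units at 5 days in C57BL/6J. The brightest of the 26 heavy-chain probes, at percentile 88.6, was of H2-Q2. It read 10.01, 9.07 and 9.21 in C57BL/6J controls and 11.79, 10.14 and 12.63 at 5 days. H2-M9 lay the other way, at 7.96, 7.69 and 7.62 against 7.38, 7.15 and 7.40. H2-Q6 read 6.72, 6.54 and 6.67 in C57BL/6J controls and 7.31, 7.14 and 7.55 in DBA/2J controls. In C57BL/6J 2 days replicate 3 it read 7.47, and in DBA/2J 2 days replicate 1 6.48. Heavy chains of the H2-Q and H2-T genes resemble the classical ones closely, and whether a probe of H2-D1, H2-K1 or H2-T23 also read their transcripts was not tested. Among the constitutive counterparts of the immunoproteasome (3 genes, 5 probes), 0 probes were called in a comparison of crush with control. Psmb6, the counterpart of Psmb9, read 16.3, 15.55 and 15.85 in C57BL/6J controls and 15.32, 14.92 and 14.76 at 5 days, without overlap but not called. Between the strains Psmb6 was called: DBA/2J minus C57BL/6J was -4.08 units in controls (SE 0.28, adjusted p = 1.45e-05) and -3.37 at 5 days (SE 0.28, adjusted p = 6.28e-05). It read 11.79 in C57BL/6J 2 days replicate 3 and 15.67 in DBA/2J 2 days replicate 1, so the 2 arrays lay near the other strain at this gene too.

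Several genes that respond to interferon were higher at 5 days alongside the members. In C57BL/6J, 7 of 19 probes of the interferon response list rose and 0 fell. They were 2 of the 3 probes of Ifit3, with 3.21 units at 1 of them (SE 0.28, adjusted p = 0.000992), and probes of Oasl2, Isg15, Usp18, Ifit2 and Gbp3. Gbp2, Ifit1, Igtp, Iigp1 and Mx1 of the list had no called probe in any comparison. The median over the list was 1.41 units, against -0.06 over all probes. In DBA/2J 0 of the 19 were called and the median was 0.62, or 0.31 without replicate 2 of the 5-day group. For the mean of the strains 9 rose, those 7 and Rsad2 and Bst2. At 5 days 2 probes of Ifit3 were lower in DBA/2J than in C57BL/6J, with differences of -2.32 and -2.50 units (adjusted p = 0.00102 and 0.00127). The brightest Ifit3 probe, 3190113, was not called, and read 9.18, 12.1 and 11.03 in C57BL/6J and 8.71, 11.85 and 8.01 in DBA/2J at 5 days. Of the signalling genes, Irf9, a subunit of the factor that carries the interferon signal to DNA, rose by 1.88 units in C57BL/6J (SE 0.36, adjusted p = 0.0233) and by 1.78 for the mean of the strains (SE 0.26, adjusted p = 0.00328), 1 of 21 and 2 of 21 probes of that list.

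The array DBA/2J 5 days replicate 2 stood out in these lists as in the members. The mean over the 10 members, taken as the brightest probe of each, was 8.62, 10.13 and 8.70 in DBA/2J 5 days, and the interferon response mean was 7.62, 8.86 and 7.56. In C57BL/6J 5 days the members gave 9.90, 9.74 and 10.18 and the interferon response 9.08, 8.68 and 8.86. Reactive glia genes averaged 12.68 in DBA/2J 5 days replicate 2 against 9.19 and 8.86 in the other arrays of its group. Lcn2, an iron-carrier binding protein of inflamed tissue, was the highest of them in that array at 16.08, against 9.14 and 8.39, and Timp1, a protease inhibitor, read 13.54 against 8.34 and 8.23.

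Some markers of microglia and macrophages, which are rich in class I molecules, moved with the members too. In C57BL/6J at 5 days 3 of 20 probes rose, Cx3cr1, C1qb and C1qc, and for the mean of the strains 6 did, with Aif1, Tyrobp and C1qa. P2ry12, Ptprc and Itgam had no called probe, and their brightest probes were dim, at percentiles 29.6, 36.0 and 2.07 of signal. P2ry12 read 6.96, 6.82 and 7.07 in C57BL/6J controls and 6.98, 6.69 and 6.87 at 5 days. DBA/2J minus C57BL/6J at 5 days was -2.48 units for Fcer1g (SE 0.28, adjusted p = 0.000737) and -1.41 for C1qc (SE 0.26, adjusted p = 0.0168). Fcer1g already stood apart in controls, though not called, at 8.46, 7.69 and 7.93 in C57BL/6J and 6.79, 6.76 and 6.69 in DBA/2J. At 5 days it read 9.43, 8.68 and 9.98 in C57BL/6J and 6.99, 6.65 and 7.01 in DBA/2J. It read 6.79 in C57BL/6J 2 days replicate 3 and 8.23 in DBA/2J 2 days replicate 1, the 2 arrays near the other strain. The mean of the 13 genes was 7.14 to 7.33 in C57BL/6J controls and 7.87 to 8.32 at 5 days, and 6.99 to 7.03 and 7.28 to 8.11 in DBA/2J. T and natural killer cell markers did not rise: 0 of 16 probes was called higher and 1, of Cd8b1, fell in C57BL/6J, and the mean of the 12 genes was 7.26 to 7.37 in controls and 7.08 to 7.14 at 5 days. That Cd8b1 probe stood at percentile 85.3 of signal, and the other probes of the gene at 1.16 and 45.0. As the brightest, it stood for Cd8b1 in the mean, and whether it read T cells was not tested. Cd3e, which defines T cells, read 6.85, 6.73 and 6.53 in C57BL/6J 5 days and stood at percentile 21.4 of signal. Ganglion cell markers fell in 5 of 12 probes for the mean of the strains. The part of the interferon, microglia and ganglion cell genes in the members' change was not tested.

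**Figure D4:**
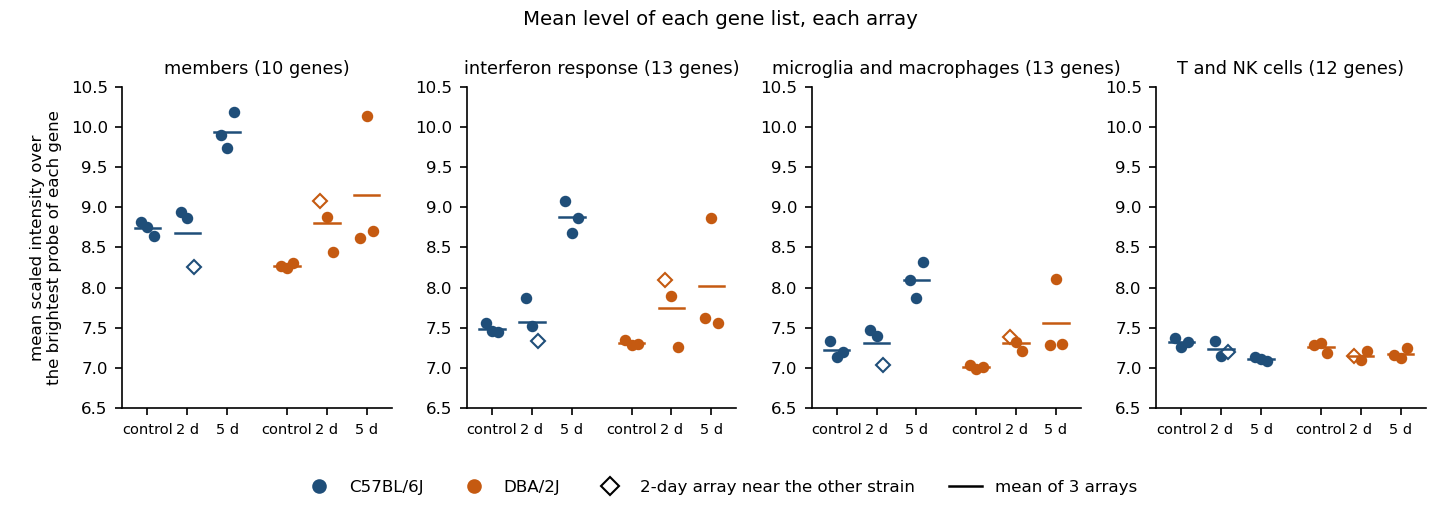
Mean scaled intensity over the brightest probe of each gene, for the 10 members, 13 interferon response genes, 13 microglia and macrophage markers and 12 T and natural killer cell markers, in each array by strain and time after crush. The first 3 lists are high in the 3 C57BL/6J 5-day arrays and in DBA/2J 5 days replicate 2, and the T and natural killer cell markers stay between 7.08 and 7.37.

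Likeness was described over the 12 control and 5-day arrays, which share the crush and the strain as sources of spread. Among the members, B2m probe 5080332 correlated with H2-T23 probe 2850609 at r = 0.97, with Psmb8 probe 105220301 at 0.94, with Psmb9 at 0.88 and with H2-D1 probe 105910377 at 0.52. H2-D1 probe 2190725 and H2-K1 probe 580332 correlated at r = -0.83. The 5 probes outside the members most like B2m were those of Ifitm1 (r = 0.979), Parp9 (0.972), Osmr (0.966), Serping1 (0.966) and Gbp3 (0.962). Most like H2-D1 probe 105910377 was Tgm2 (r = 0.94), followed by Htatsf1, Gng10, Slit3 and Lrrtm1 down to 0.923. Most like H2-K1 probe 580332 was Nxnl1 (r = 0.989), followed by Hnrnpa3, Eif4e, Mcm6 and Dis3 down to 0.977.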

How the data were processed

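The authors deposited the raw signal intensity of 46116 probes on 18 Illumina Sentrix Mouse-6 arrays, with no detection p-values and no statement on background correction, and a second table of scores, log2 intensities standardized per array to a mean of 8 and an SD of 2. That scale was computed again from the intensities, and 99.7% of probes equalled the deposited score within 0.02. Probes were named from the platform annotation: 29534 had 1 symbol, 11 several and 16571 none. Quantile normalization was used for differences given as log2.

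limma (3.58.1, R 4.3.3) lmFit and eBayes were run with 1 mean per group over the 12 control and 5-day arrays, or all 18 arrays for the 2-day comparisons, with Benjamini-Hochberg adjustment over all probes. An adjusted p under 0.03, the threshold of the study, was called. The members, the gene lists and the choice of 12 arrays were made with earlier results of these data known. Every member probe is described. In the interferon, microglia, T and natural killer cell, and proteasome lists, every gene with a called probe is named. Replicates were separate samples of pooled retinas. The p-values set a difference against 1 spread per probe, estimated over all groups of the fit and moderated across probes by eBayes. DBA/2J 5 days replicate 2 therefore also enters the SE of the comparisons within C57BL/6J. The precision of that spread is limited by 3 arrays per group. The study used 3 BeadChips, and which array lay on which chip is not given in the sources used here, so no chip block was fitted. Same-numbered arrays deviated together (correlation above 0.1 for every number) only for C57BL/6J 2 days against control, at 0.479, 0.415 and 0.266. For C57BL/6J 5 days against control the correlations were 0.615, 0.498 and -0.0175 for replicates 1, 2 and 3. The numbers were given no meaning by the sources.

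On simulated data 200 probes were changed for C57BL/6J 5 days against control over 46116 probes, and 119 were called, 1 of them unchanged, with 39% of the 1-unit and 79% of the 2-unit changes found. The changed probes were drawn from those with a mean above the median, and the noise was normal and independent between arrays. The shares found therefore do not cover dimmer probes or arrays that stand apart. Alternatives were quantile normalization, normexp (offset 50) with quantile normalization, the brighter probes only, the deposited scores, a replicate block, all 18 arrays, the 2 groups alone, SAM and each array left out. Python 3.11.15, numpy 2.4.6, pandas 2.3.3 and matplotlib 3.10.9 were used for the rest. Fold changes and p-values of the study were not used.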

Additional observations from a re-analysis of the deposited data

How the results depend on the processing

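Of 13 member differences called, none turned direction in 199 alternatives, 140 kept the call and 59 lost it. Member probes called, all probes called and the settings that moved them follow, and where no cause is named it was not tested. For DBA/2J control against C57BL/6J control, 2 member probes and 475 in all became 0 and 2 with all 18 arrays, which include the 2 arrays near the other strain, and 0 to 1 and 306 to 366 with an array left out. For C57BL/6J 5 days, 3 member probes and 705 in all became 1 with the replicate number as a block, 2 with all 18 arrays (B2m lost), 5 with the 2 groups alone, 7 with SAM (1775 in all), and 1 to 1 and 104 to 701 with an array left out. For DBA/2J 5 days, 0 member probes were called in any setting, and 13 in all became 28 with quantile normalization, 37 with the replicate block, 31 with all 18 arrays, 3 with the 2 groups alone, 204 with SAM and 2 to 274 with an array left out. For the strains at 5 days, 2 member probes and 588 in all became 0 and 4 with all 18 arrays, 337 in all with the 2 groups alone, and 2 to 7 and 361 to 541 with an array left out. For the mean of the strains, 6 and 2271 became 3 to 7 and 1090 to 3019 with an array left out. For the difference in change, 0 in all became 0 to 2. For C57BL/6J 2 days, 9 in all became 14 with quantile normalization, 14 with the replicate block, 0 with the 2 groups alone, 135 with SAM and 0 to 23 with an array left out. For DBA/2J 2 days, 0 in all became 1 with quantile normalization, 3 with normexp, 3 with the replicate block and 5 with SAM. The fit of 16 arrays without the 2 near the other strain was chosen after seeing the data and called 0 member probes. The replicate block changed 4 member calls. In C57BL/6J at 5 days, same-numbered arrays deviated together for replicates 1 and 2 (correlation 0.615 and 0.498) but not 3 (-0.0175). There H2-T23 probe 2850609 had an adjusted p of 0.0308 and B2m of 0.0402 with the block. For the mean of the strains H2-T23 probe 380692 had an adjusted p of 0.0409, while H2-T23 probe 102340121 became called (0.0228). Dim probes limit what can be read: at percentile 33.8 of signal for H2-M3 and 35.4 for Tap1, a change could pass unseen.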
